A study of Rattus norvegicus with 6 samples.

Results

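The mitochondrial ribosomal protein genes of the rat aorta are described here, in rings kept for 1 day in collagen gel and in freshly cut rings. Members were all rows of the array table whose annotation gave exactly 1 gene symbol starting with Mrpl or Mrps followed by a number, with the row of highest mean kept for each gene. This gave 67 of the 14324 genes measured, 41 of them named for the large subunit (Mrpl) and 26 for the small subunit (Mrps). Of the 77 Mrpl and Mrps names listed for the mammalian mitochondrial ribosome, the 67 members were measured here. The 10 names not analysed here were Mrpl9, Mrpl11, Mrpl20, Mrpl24, Mrpl28, Mrpl33, Mrpl39, Mrpl58, Mrps6 and Mrps22.

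Mitochondria keep a small genome that encodes core subunits of the respiratory chain, and they translate its messages on a ribosome of their own. All protein components of this mitoribosome are encoded in the nucleus, made in the cytosol and imported, while its ribosomal RNAs are made inside the organelle. Part of the proteins descend from the bacterial ribosome and part were added in mitochondria. The respiratory complexes other than complex II need its products beside the subunits made in the cytosol.

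The day 1 samples were aortic rings of male Fisher 344 rats aged 1 to 2 months, cultured in collagen gel in serum-free EBM medium for 1 day and lysed with the gel (day 1, 3 arrays). They were set against aortic rings of male Fisher 344 rats of the same age taken at harvest, with no gel and no culture (day 0, 3 arrays). Each array held RNA pooled from 4 to 6 rings or ring cultures, and the labels name biological replicates without telling if 1 rat gave rings to several pools, so each p-value covers only how far the pools differed. No culture without gel and no other time point was analysed here, so time, gel, medium and cutting cannot be told apart. Values are deposited log2 expression values, and array medians lay between 5.87 and 5.95. Values spread wider on day 1 arrays. Their upper quartiles were 7.93 to 7.95, against 7.83 to 7.87 on day 0, and their lower quartiles 4.27 to 4.29, against 4.32 to 4.39. Arrays correlated across genes at 0.959 to 0.963 between day 1 and day 0, and at 0.996 to 0.997 inside either group (Pearson's r).

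The arrays carried the markers of an aortic ring with its surrounding tissue, and these moved strongly. All 8 smooth muscle markers fell, and their mean log2 value was 8.25 to 8.42 on day 1 arrays and 11.64 to 11.72 on day 0 arrays. Of 5 brown adipocyte markers 3 fell (list mean 4.66 to 4.84 on day 1 and 5.96 to 6.30 on day 0). Of 7 white adipocyte markers 6 fell (5.54 to 5.78 on day 1 and 6.52 to 6.70 on day 0), and of 7 striated muscle markers 5 fell (5.57 to 5.61 on day 1 and 7.14 to 7.25 on day 0). Of 5 endothelial markers 4 rose (8.69 to 8.81 on day 1 and 8.29 to 8.50 on day 0), or 2 with quantile normalization. Fibroblast markers went both ways, 3 up and 3 down of 6, with list means of 10.95 to 11.07 on day 1 and 11.24 to 11.35 on day 0. Of 7 macrophage markers 2 rose and 3 fell (7.89 to 8.05 on day 1 and 8.05 to 8.11 on day 0), and both measured erythroid markers fell (5.84 to 6.03 on day 1 and 7.57 to 8.0 on day 0). The array scale has no zero, so no marker can be called absent. In such bulk samples, fewer cells of a type and less RNA per cell cannot be told apart, and the part of these shifts in the results below was not tested.

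After 1 day of culture, more mitoribosomal protein genes were higher than lower, by small amounts and in both subunits. Of the 67 members, 32 rose, 3 fell and 32 missed the threshold by limma (two-sided, Benjamini-Hochberg adjusted p under 0.05 over all 14324 genes). Over all genes, 27.6% rose, 20.7% fell and 48.3% passed in either direction. Shares of calls differed with signal, so a second background was taken from the 8232 genes with a mean array value at or above that of the dimmest member, of which 42.9% rose and 23.4% fell. This uses mean values of different probes only to set a range of signal, and 60 of the 67 members lay above the median mean value of all genes (6.79). The range, called the members' signal range below, has a floor and no upper limit. It thus includes genes brighter than the brightest member (mean 9.58). In this fit the 47.8% of members that rose thus lay near the share in that signal range, while the 4.48% that fell lay below either background. The nearness of the rises depended on the fit. With genes under the median mean left out, 40 of the 60 members kept rose, against 49.0% of the genes kept. With a trend and robust prior 38 members rose, against 29.0% of all genes. With quantile normalization 28 rose, against 24.2% of all genes. The signal range was not counted in these fits. The median log2 change was 0.19 over the members, 0.12 over the genes of that range and -0.01 over all genes. The median over the members stayed above that over all genes with quantile normalization (0.13 against 0.0016) and with median centring (0.24 against 0.04). The median of the signal range was not taken under these scalings.

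The changes were small. No member reached a 2-fold change, where 8.24% of all genes passed the test with such a change in either direction. At least 1.5-fold higher were 7 members, where 10.9% of all genes, and 16.7% of the genes of that signal range, passed the test with a rise of that size. Tested against a 1.5-fold change with limma's treat, 1 member passed, Mrps18b (adjusted p = 0.0141), where 5.77% of all genes did so upward. Standard errors of the members' log2 changes ran between 0.06 and 0.13, with a median of 0.07, so rises well under 1.5-fold could be called. On the arrays, the mean over all members was 8.10 ± 0.02 on day 1 and 7.86 ± 0.01 on day 0 (SD, n = 3 each), a difference of 0.24.

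**Figure D1:**
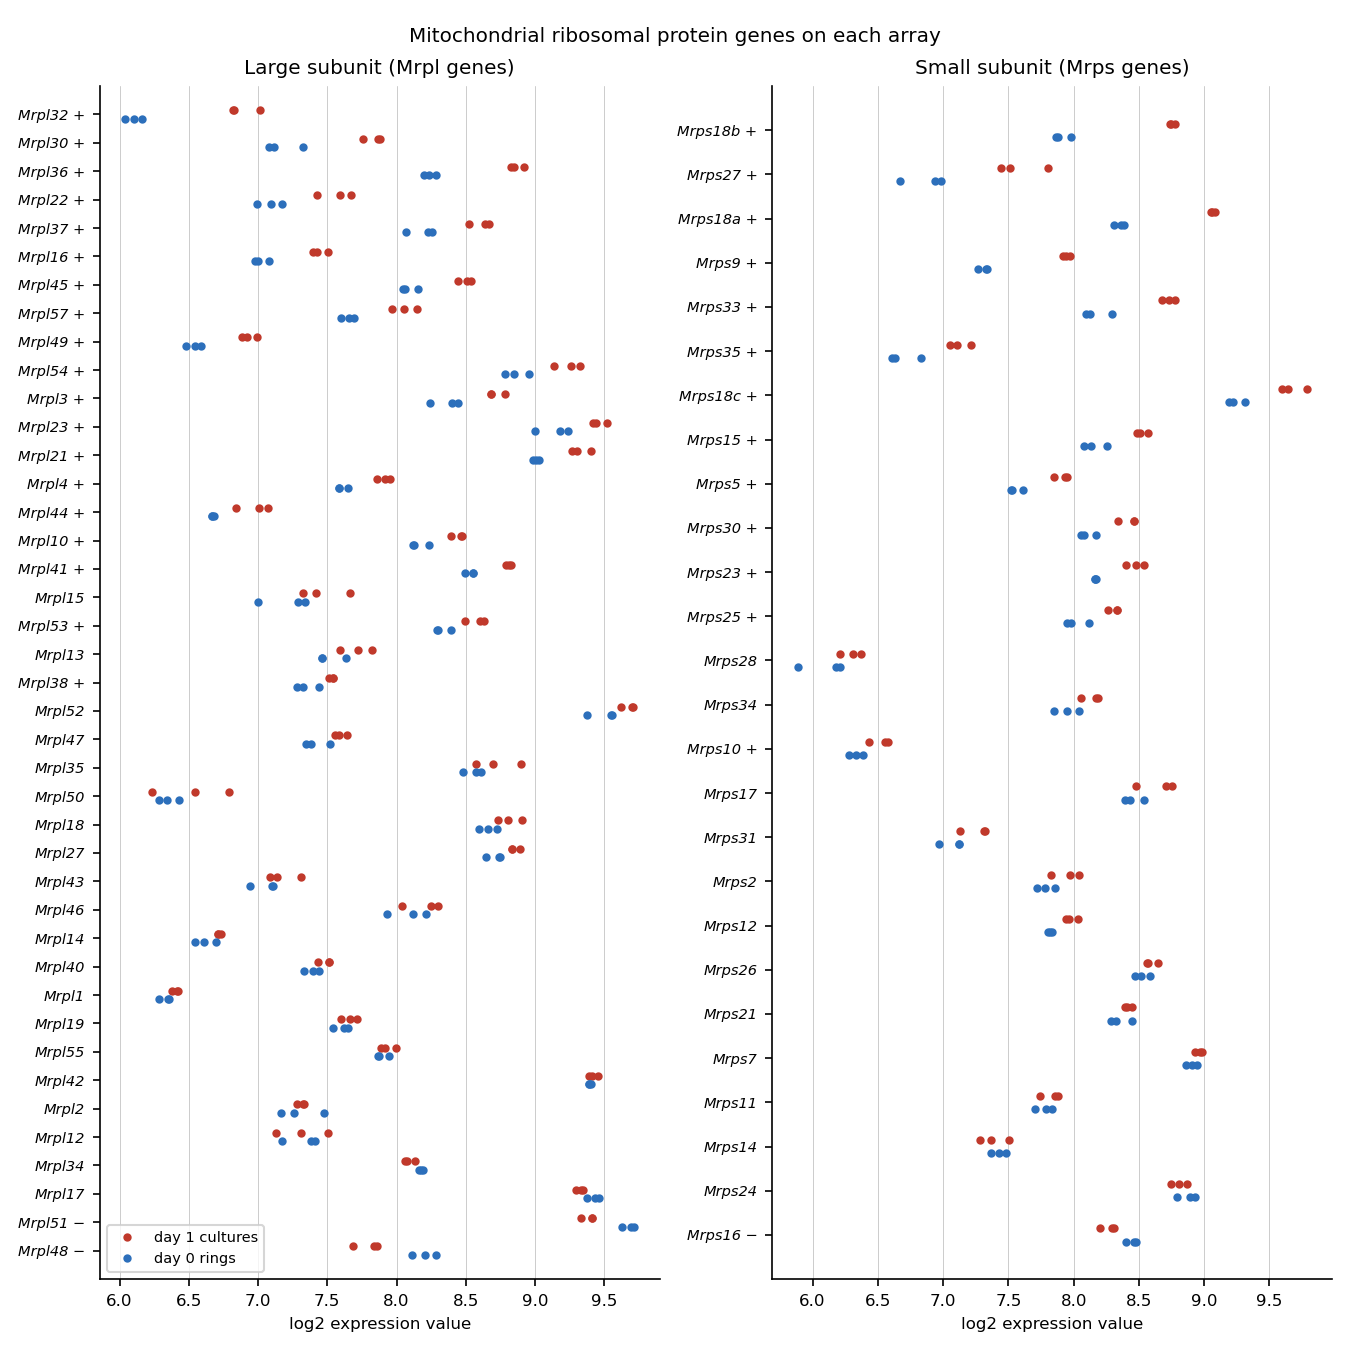
Log2 expression value (x axis) of every mitoribosomal gene on each of the 3 day 1 arrays and 3 day 0 arrays, sorted within each subunit by the size of the change; a plus marks genes that rose and a minus genes that fell by limma (adjusted p under 0.05). Day 1 points lie right of all day 0 points in 41 members and left of all of them in 5.

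**Figure D2:**
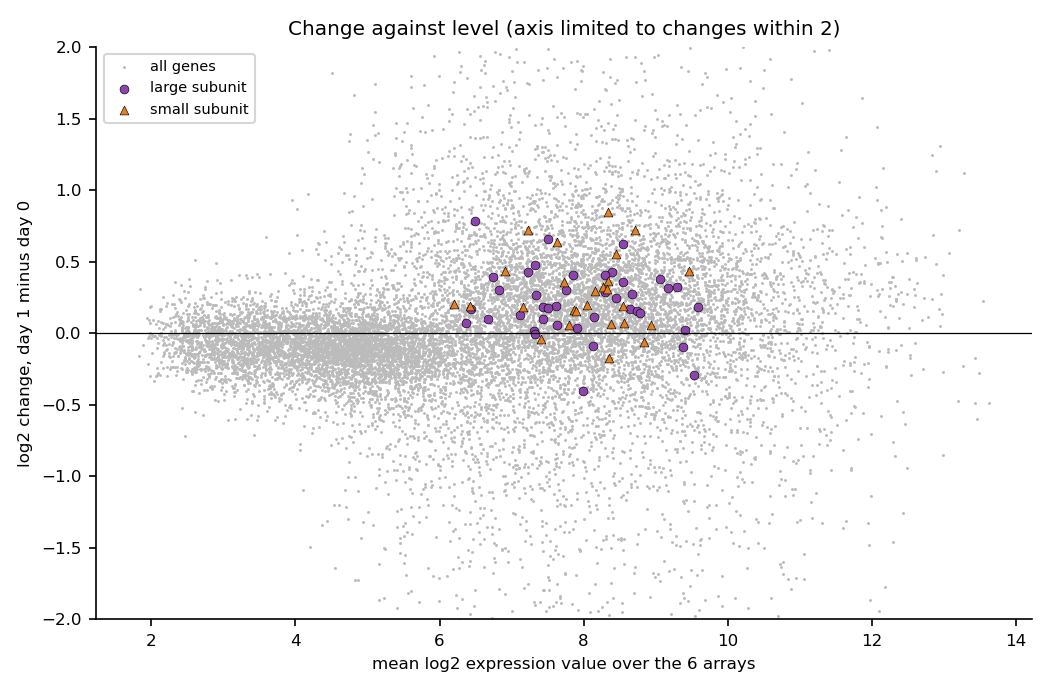
Log2 change, day 1 minus day 0 (y axis), against the mean log2 value over the 6 arrays (x axis) for all genes, with the 41 large subunit and 26 small subunit genes marked; 265 genes with a change beyond 2 are not drawn. All members lie at means between 6.20 and 9.58 and within changes of -0.40 and 0.85.

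Arrays of day 1 and day 0 did not overlap in 46 members, 41 of them higher and 5 lower on day 1. Over all genes the groups did not overlap in 56.9%, upward in 31.4% and downward in 25.5%. Among the 8232 genes of the members' signal range they did not overlap in 76.3%, upward in 48.6% and downward in 27.7%. The plot of levels by array shows this as red and blue points that part in most lines, with gaps that are narrow beside the range between genes. Positions of different genes along the axis come from different probes and say nothing of which transcript is more abundant.

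In both subunits more genes rose than fell, as among all genes of the members' signal range. Of the 41 large subunit genes 19 rose and 2 fell, with a median log2 change of 0.18. Of the 26 small subunit genes 13 rose and 1 fell, with a median of 0.20. In the signal range 42.9% of genes rose and 23.4% fell. In this fit the shares that rose (46.3% of the large subunit, 13 of 26 in the small) were not far above that. The shares that fell (4.88% large, 3.85% small) lay below it. Differences from this background were not tested. The mean over large subunit genes was 8.08 ± 0.02 on day 1 arrays and 7.87 ± 0.01 on day 0 arrays (SD, n = 3 each), a difference of 0.21. For small subunit genes it was 8.14 ± 0.03 on day 1 and 7.86 ± 0.0016 on day 0 (SD, n = 3 each), a difference of 0.28. The difference between the subunits was not tested. With quantile normalization the medians were 0.12 for the large subunit, where 4 genes fell, and 0.19 for the small subunit, where 1 fell. The order of the subunit medians was not stable, since the large subunit had the higher median without day 1 replicate 1 (0.21 for large, 0.18 for small) and without day 0 replicate 1 (0.23 for large, 0.21 for small). The gene names do not fully follow the structure: in mammalian mitoribosomes the products of Mrps30 and Mrps18a lie in the large subunit. With these placed there, 21 of 43 large subunit genes rose (median 0.19) and 11 of 24 small subunit genes rose (median 0.19).

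The largest change in the small subunit was that of Mrps18b, one of 3 mammalian relatives of a single bacterial small subunit protein. Its log2 values were 8.78, 8.74 and 8.75 on day 1 and 7.88, 7.98 and 7.87 on day 0. Every day 1 array was well above every day 0 array, and the change was 0.85 ± 0.06 (SE, n = 3 per group, a 1.80-fold rise; limma adjusted p = 1.27e-05). Mrps18a, the relative that sits in the large subunit, had 9.08, 9.06 and 9.06 on day 1 and 8.31, 8.38 and 8.36 on day 0. It rose by 0.72 ± 0.06 (limma adjusted p = 2.28e-05). Mrps18c, which takes the place of the bacterial protein in the small subunit, had 9.64, 9.78 and 9.60 on day 1 and 9.22, 9.31 and 9.19 on day 0. It rose by 0.43 ± 0.07 (limma adjusted p = 0.00151), so that all 3 relatives rose and in each of them every day 1 array was above every day 0 array.

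Other small subunit genes rose by less than Mrps18b. Mrps27, whose product is a mitochondria-specific protein of the pentatricopeptide repeat family that binds RNA, had 7.81, 7.51 and 7.44 on day 1 and 6.98, 6.94 and 6.67 on day 0. It had the widest spread of the strongly changed members, and its change was 0.72 ± 0.12 (limma adjusted p = 0.00146). Mrps9, the counterpart of a bacterial protein whose tail reaches the transfer RNA in the decoding region, was tightly grouped at 7.92, 7.97 and 7.94 on day 1 and 7.27, 7.33 and 7.33 on day 0. It rose by 0.63 ± 0.06 (limma adjusted p = 4.78e-05). The mitochondria-specific genes Mrps33 (0.56 ± 0.07) and Mrps35 (0.43 ± 0.08) rose too, as did Mrps15 (0.36 ± 0.07), the counterpart of a bacterial protein that binds the ribosomal RNA early in assembly. The other 5 small subunit genes that rose, namely Mrps5, Mrps23, Mrps25, Mrps10 and Mrps30, changed by 0.19 to 0.36.

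In the large subunit Mrpl32 led. Its product, the counterpart of a bacterial protein, is matured in mouse and yeast mitochondria by the m-AAA protease of the inner membrane, a step that controls mitoribosome assembly there. Its values were 6.82, 7.01 and 6.82 on day 1 and 6.17, 6.04 and 6.10 on day 0. The change was 0.78 ± 0.08 (limma adjusted p = 7.15e-05). Mrpl30, also of bacterial descent, had 7.75, 7.88 and 7.86 on day 1 and 7.11, 7.32 and 7.08 on day 0, a rise of 0.66 ± 0.08 (limma adjusted p = 2.93e-04). RefSeq lists 9 pseudogene copies of Mrpl30 in the rat genome, and whether its probes also match them was not tested. Mrpl36, the counterpart of one of the smallest bacterial ribosomal proteins, had 8.84, 8.92 and 8.83 on day 1 and 8.23, 8.29 and 8.20 on day 0, a rise of 0.63 ± 0.06 (limma adjusted p = 7.05e-05). All 3 genes parted the groups with no overlap.

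The next large subunit genes by size were Mrpl22 (0.48 ± 0.08), whose bacterial counterpart lines the exit tunnel of the nascent chain, and the mitochondria-specific Mrpl37 (0.43 ± 0.08). Mrpl16 rose by 0.42 ± 0.06, Mrpl45 by 0.41 ± 0.06 and Mrpl57 by 0.41 ± 0.07. The product of Mrpl45 sits at the tunnel exit and ties the ribosome to the inner membrane, where nascent respiratory chain subunits are inserted. The other 11 large subunit genes that rose changed by 0.18 to 0.39.

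The genes that fell were few. Mrpl48, a mitochondria-specific large subunit gene, had 7.84, 7.86 and 7.69 on day 1 and 8.28, 8.20 and 8.11 on day 0. It fell by 0.40 on the log2 scale (SE 0.08, limma adjusted p = 0.00272). Mrpl51, also mitochondria-specific and of the large subunit, had 9.41, 9.41 and 9.33 on day 1 and 9.71, 9.62 and 9.69 on day 0. It fell by 0.29 on the log2 scale (SE 0.06, limma adjusted p = 0.00449). Mrps16, the counterpart of a bacterial small subunit protein and a human mitochondrial disease gene, had 8.31, 8.30 and 8.20 on day 1 and 8.47, 8.46 and 8.40 on day 0. It fell by 0.18 on the log2 scale (SE 0.06, limma adjusted p = 0.0461), close to the threshold, and it missed the threshold with any array left out (adjusted p between 0.0597 and 0.135). With quantile normalization 5 members fell, the additional ones being Mrpl17 (-0.19) and Mrpl34 (-0.19), whose groups do not overlap.

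Among members that missed the threshold, the largest changes in the large subunit were those of Mrpl15 (0.26 ± 0.12, limma adjusted p = 0.105), Mrpl13 (0.19 ± 0.08, limma adjusted p = 0.0922) and Mrpl52 (0.18 ± 0.07, limma adjusted p = 0.0725). In the small subunit they were those of Mrps28 (0.21 ± 0.10, limma adjusted p = 0.125), Mrps34 (0.19 ± 0.07, limma adjusted p = 0.0604) and Mrps17 (0.19 ± 0.09, limma adjusted p = 0.110). Mrps34 and Mrpl52 parted the groups without overlap. At the small end, Mrpl42 stood at 9.45, 9.41 and 9.39 on day 1 and 9.40, 9.39 and 9.39 on day 0 (0.02 ± 0.06, limma adjusted p = 0.781), and at -0.081 with quantile normalization. Mrpl1 was at 0.07 ± 0.06, and Mrpl50, with the largest standard error of the family, at 0.17 ± 0.13.

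Grouped by descent, mitochondria-specific proteins and those with a bacterial counterpart both had more genes that rose than fell. Of 28 mitochondria-specific genes 17 rose and 2 fell (60.7% and 7.14%, median 0.28). Of 39 genes with a bacterial counterpart 15 rose and 1 fell (38.5% and 2.56%, median 0.18). In the members' signal range 42.9% of genes rose and 23.4% fell, so rises outnumbered falls there too. Mrps18a and Mrps18b were counted as mitochondria-specific, because neither takes the bacterial protein's place, although they are related to it. Counted by descent instead, an alternative chosen after the data were seen, 15 of 26 mitochondria-specific genes rose (median 0.26), and 17 of 41 with a bacterial counterpart did (median 0.19). The difference between these classes was not tested. Within the small subunit by structure, 6 of 9 mitochondria-specific genes rose (median 0.31), and 5 of 15 with a bacterial counterpart did (median 0.16). Within the large subunit by structure the counts were 11 of 19 (median 0.25) and 10 of 24 (median 0.19). Members with a pseudogene copy in RefSeq rose in 10 of 22 cases (median 0.19), and those without in 22 of 45 (median 0.19).

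The 5 mitoribosomal proteins whose genes carry other names included 3 that rose and 0 that fell. In the members' signal range 42.9% of genes rose and 23.4% fell. Ptcd3, a pentatricopeptide repeat protein of the small subunit, rose by 0.31 ± 0.06, Aurkaip1 by 0.28 ± 0.06 and Dap3, which also binds GTP, by 0.27 ± 0.07. Chchd1 (0.02 ± 0.08) and Gadd45gip1 (-0.06 ± 0.07) missed the threshold.

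The promoters of strongly changed members are shown so that the letters at the starts of genes that rose and of genes that fell can be read side by side. RefSeq windows of 300 bases (GRCr8, 250 before to 50 after the start) were matched for 54 of the 67 members, leaving Mrpl13, Mrpl15, Mrpl16, Mrpl19, Mrpl21, Mrpl35, Mrpl38, Mrpl43, Mrps12, Mrps24, Mrps28, Mrps34 and Mrps35. The 2 largest rises with a window in each subunit and both large subunit genes that fell are printed 5′ to 3′. Capitals mark matches on either strand to CCGGAAG (the ETS family, which includes GABP), GCGCA and GCGC with any 1 base between them (NRF1), AAGATGGC (YY1) and CACGTG (the E-box bound by MYC). GABP, NRF1 and YY1 are known activators of nuclear genes for mitochondria.
Mrps18b, chr20:2842756-2843055, plus strand: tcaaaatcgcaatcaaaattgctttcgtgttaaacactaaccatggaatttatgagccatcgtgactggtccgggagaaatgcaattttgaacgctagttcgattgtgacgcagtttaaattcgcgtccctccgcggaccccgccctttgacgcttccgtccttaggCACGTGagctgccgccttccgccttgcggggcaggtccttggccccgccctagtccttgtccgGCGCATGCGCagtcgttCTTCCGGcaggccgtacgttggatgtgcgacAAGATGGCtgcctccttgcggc
Mrps27, chr2:32473954-32474253, plus strand: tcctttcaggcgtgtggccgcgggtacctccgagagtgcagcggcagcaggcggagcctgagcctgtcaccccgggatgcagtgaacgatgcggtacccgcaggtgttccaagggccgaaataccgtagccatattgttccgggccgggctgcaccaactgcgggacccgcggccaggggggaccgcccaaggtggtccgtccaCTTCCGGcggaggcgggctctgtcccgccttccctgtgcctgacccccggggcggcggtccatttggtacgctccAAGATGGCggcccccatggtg
Mrpl32, chr17:55260401-55260700, plus strand: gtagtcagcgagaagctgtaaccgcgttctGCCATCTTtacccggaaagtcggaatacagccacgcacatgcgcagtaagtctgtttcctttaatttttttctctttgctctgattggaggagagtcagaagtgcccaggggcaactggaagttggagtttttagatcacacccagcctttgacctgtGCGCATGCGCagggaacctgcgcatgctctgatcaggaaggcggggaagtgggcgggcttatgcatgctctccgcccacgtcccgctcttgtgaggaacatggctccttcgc
Mrpl30, chr9:47620977-47621276, plus strand: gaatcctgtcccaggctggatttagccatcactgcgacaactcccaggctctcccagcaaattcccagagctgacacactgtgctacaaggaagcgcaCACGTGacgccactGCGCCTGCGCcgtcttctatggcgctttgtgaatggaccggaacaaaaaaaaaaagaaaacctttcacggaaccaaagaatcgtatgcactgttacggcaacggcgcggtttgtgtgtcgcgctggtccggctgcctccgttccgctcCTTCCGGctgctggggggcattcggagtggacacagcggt
Mrpl48, chr1:164351327-164351626, minus strand: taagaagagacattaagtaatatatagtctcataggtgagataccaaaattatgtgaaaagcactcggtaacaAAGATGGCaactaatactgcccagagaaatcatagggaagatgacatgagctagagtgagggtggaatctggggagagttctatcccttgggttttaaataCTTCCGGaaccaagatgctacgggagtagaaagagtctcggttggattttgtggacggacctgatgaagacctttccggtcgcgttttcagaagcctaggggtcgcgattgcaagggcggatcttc
Mrpl51, chr4:159677738-159678037, plus strand: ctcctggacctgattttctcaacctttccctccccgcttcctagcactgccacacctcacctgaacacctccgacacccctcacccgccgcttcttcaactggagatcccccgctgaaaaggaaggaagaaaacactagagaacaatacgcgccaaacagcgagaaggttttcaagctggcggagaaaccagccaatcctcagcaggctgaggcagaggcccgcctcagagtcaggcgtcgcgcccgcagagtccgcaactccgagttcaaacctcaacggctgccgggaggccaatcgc
Among genes that rose, the window of Mrps18b holds each of the 4 motifs once, that of Mrpl30 holds 3 of them, and those of Mrps27 and Mrpl32 hold 2 each. Of the genes that fell, Mrpl48 holds 2 (ETS and YY1), as many as Mrps27 and Mrpl32, and Mrpl51 holds 0.

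These motifs were frequent in the family. Of the 54 windows, 18 (33.3%) held the ETS motif, against 13.0% of the 11806 windows of genes measured here. The NRF1 motif was in 9 (16.7%, against 7.38%), the YY1 motif in 14 (25.9%, against 4.27%) and the E-box in 6 (11.1%, against 7.89%). Matches of different motifs overlapped in 0 of the 54 windows. The TATA box letters TATAAA were in 7 (13.0%, against 11.8%), and the median number of CpG dinucleotides was 18.5 in member windows and 16.0 in those of all genes measured. At least 1 of the 4 motifs was in 57.4% of member windows, against 27.0%. By call, all 6 windows with an E-box belonged to the 28 members with a window that rose (21.4%), and 0 of the 23 that missed the threshold held one. The ETS motif was in 12 of the 28 that rose and in 5 of the 23 that missed it. The windows of all genes measured were not split by call, so these shares by call have no background beside them. A match is a description of letters and not a binding site, and these differences were not tested.

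Many mitoribosomal genes start back to back with another gene. In 17 of the 54 (31.5%), the nearest upstream start on the opposite strand lay within 1000 bases and belonged to a protein-coding gene. This held for 8.21% of the genes measured here. These are 16 pairs, since Mrpl46 and Mrps11 are each other's partner, and both genes were measured in 13. In 4 pairs both genes passed the test, all upward. Over all genes 48.3% passed in either direction, and joint calls were not counted in head-to-head pairs outside the family. Mrpl30 (0.66 ± 0.08) has a start 192 bases from that of Mitd1, which acts in the last step of cell division (0.62 ± 0.07). Mrps27 (0.72 ± 0.12) has its start 89 bases from Ptcd2, another mitochondrial RNA-binding protein (0.77 ± 0.08). Mrpl32 (0.78 ± 0.08) is 208 bases from the proteasome subunit gene Psma2 (0.51 ± 0.06). Mrpl49 (0.39 ± 0.06) is 184 bases from Fau (0.16 ± 0.06), which encodes a cytosolic ribosomal protein. Fau passed only just (limma adjusted p = 0.0497).

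The remaining pairs were split. The member alone passed in 2 pairs, Mrps18b beside the phosphatase subunit gene Ppp1r10 (0.06 ± 0.07) and Mrps18c beside the helicase gene Helq (0.16 ± 0.09). The partner alone passed in 3 pairs. The chaperonin gene Tcp1 rose by 0.58 ± 0.06 beside Mrpl18 (0.15 ± 0.07), the histone chaperone gene Hira by 0.33 ± 0.07 beside Mrpl40 (0.10 ± 0.06), and the vesicle adaptor gene Gga3 by 0.26 ± 0.07 beside Mrps7 (0.06 ± 0.06). In 4 pairs neither passed, among them the member pair Mrpl46 (0.11 ± 0.10) and Mrps11 (0.05 ± 0.07).

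**Figure D3:**
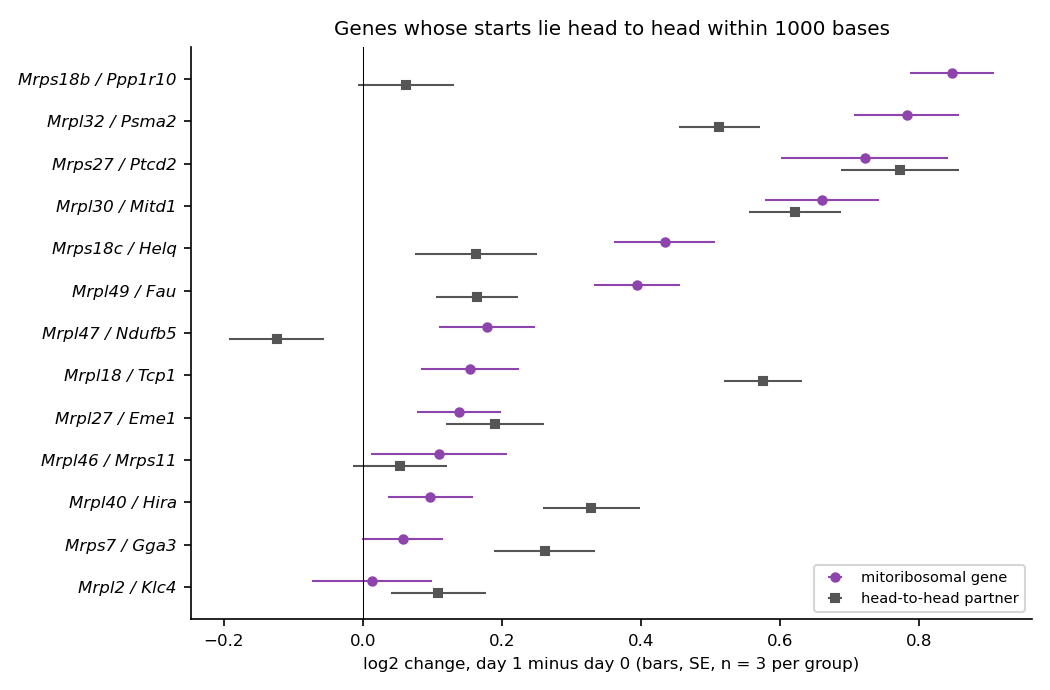
Log2 change, day 1 minus day 0 (x axis, bars are SE, n = 3 per group), in 13 pairs of a mitoribosomal gene and the gene whose start lies head to head within 1000 bases. Both genes are mitoribosomal in the pair of Mrpl46 and Mrps11, where Mrps11 is drawn as the partner. Both changes are close in Mrps27 with Ptcd2 and in Mrpl30 with Mitd1, while Mrps18b at 0.85 stands apart from Ppp1r10 at 0.06.

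Genes that build and serve the mitoribosome were counted against the same backgrounds. Of 24 assembly and rRNA modification genes 9 rose and 2 fell (37.5% and 8.33%), against 42.9% and 23.4% in the members' signal range, and their median of 0.13 lay near the 0.12 of that range. With quantile normalization the median was 0.058. The largest rise was that of Fastkd2 (1.20 ± 0.10), which binds the large ribosomal RNA of mitochondria, followed by the RNA methyltransferase gene Nsun4 (0.78 ± 0.07) and the GTPase genes Gtpbp10 (0.63 ± 0.08) and Mtg1 (0.62 ± 0.08). Tfb1m, which methylates the small ribosomal RNA, fell by 0.42 on the log2 scale (SE 0.07). Of 10 mitochondrial translation factor genes 6 rose and 0 fell (median 0.22), with the initiation factor gene Mtif2 at 0.54 ± 0.09, the elongation factor genes Gfm1 at 0.47 ± 0.08 and Tufm at 0.41 ± 0.07, and Mtfmt at 0.31 ± 0.09.

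In the members' signal range 42.9% of genes rose and 23.4% fell. Of 22 mitochondrial transcription and RNA processing genes 14 rose and 2 fell (63.6% and 9.09%, median 0.32). Among them were Tfb2m (0.78 ± 0.10) and Tfam (0.74 ± 0.08), which start transcription of the mitochondrial genome, the RNase P subunit gene Trmt10c (0.77 ± 0.07) and the RNA stability gene Lrpprc (0.69 ± 0.06), while Fastk was at -0.54 ± 0.06. Of 24 protein import genes 18 rose and 1 fell (median 0.31), led by the matrix chaperone gene Hspa9 (1.02 ± 0.06), Timm13 (0.65 ± 0.06), the import pore gene Tomm40 (0.64 ± 0.07) and Timm8a1 (0.63 ± 0.12), with Tomm5 at -0.49 ± 0.08. Regulators of mitochondrial gene programmes went both ways, 3 up and 3 down of 12 (5 up and 3 down with median centring, 2 up and 3 down with quantile normalization). Myc rose by 2.41 ± 0.17, Ppara by 0.49 ± 0.07 and Yy1 by 0.22 ± 0.08 (limma adjusted p = 0.0499, just under the threshold), and the coactivator gene Ppargc1b fell by 1.51 on the log2 scale (SE 0.10) and Creb1 by 0.30 (SE 0.07). Nrf1 (-0.09 ± 0.06) and Gabpa (0.15 ± 0.06) missed the threshold.

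Beside the mitoribosome, the cytosolic ribosome and the respiratory chain gave different counts. In the members' signal range 42.9% of genes rose and 23.4% fell. Of 66 cytosolic ribosomal protein genes 63 rose and 0 fell (95.5% rose, median 0.38), or 38 rose and 0 fell with quantile normalization (median 0.22). The largest rises were those of Rps18 (0.74 ± 0.07), Rpl39 (0.71 ± 0.14) and Rps12 (0.71 ± 0.08). Of 32 nucleolar ribosome biogenesis genes 30 rose and 0 fell (median 0.72), led by Mrto4 (1.23 ± 0.08), Gar1 (1.22 ± 0.09) and Utp18 (1.22 ± 0.08). Of 66 nuclear-encoded respiratory chain genes 5 rose and 15 fell (7.58% and 22.7%, median -0.06). Their split moved with scaling, to 3 up and 27 down with quantile normalization and to 7 up and 8 down with median centring. Sdhc, a subunit of complex II, was at -0.48 ± 0.07 and the ATP synthase subunit gene Atp5me at -0.45 ± 0.07, while Uqcrfs1 of complex III was at 0.43 ± 0.07. These lists are described by counts and medians and the differences between them were not tested. Many cytosolic ribosomal and respiratory chain genes had means above that of the brightest member (9.58). The share of genes called differed with signal, so these counts were not compared at like signal.

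**Figure D4:**
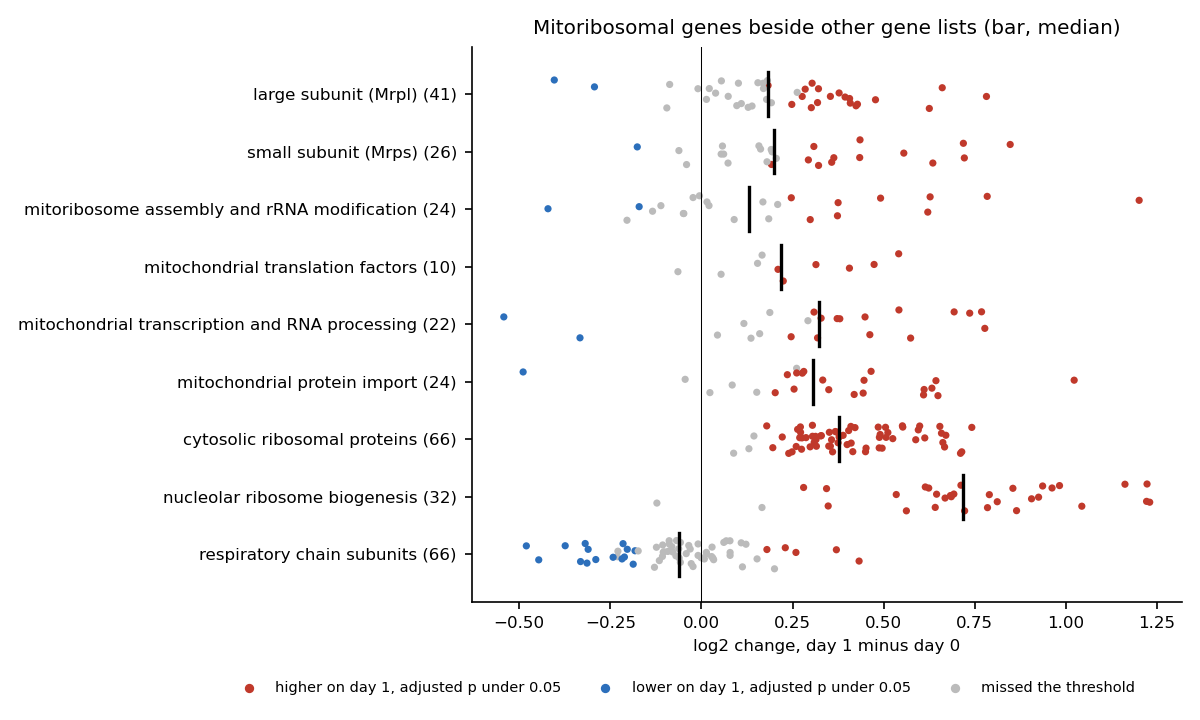
Log2 change, day 1 minus day 0 (x axis), of each gene in the mitoribosomal subunits and in 7 other lists, with the number of genes in brackets and a bar at the median; red genes rose, blue genes fell and grey genes missed the threshold by limma (adjusted p under 0.05). Medians are 0.18 and 0.20 for the large and small subunits, 0.38 for cytosolic ribosomal proteins and -0.06 for respiratory chain subunits.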

How the data were processed

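Expression was measured on 6 Affymetrix whole-transcript arrays labelled from 200 ng of total RNA, per the labels' protocols. The deposited table holds log2 values for 27342 rows, a scale inferred from their range. The submitters' processing notes name limma, while no source used here gives the authors' background correction or normalization. Values were used without further scaling, so a change is one against most other genes, and dim features give changes that are too small. Gene names came from the array annotation (rows: 15097 with 1 symbol, 323 with several, 11922 with none) and were updated against GRCr8 by gene ID (15067), accession (6) or as annotated (24). Of several rows of a gene the brightest was kept.

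Day 1 was compared with day 0 using limma 3.58.1 in R 4.3.3 (lmFit, eBayes, no filter, no block). The fit was tested on simulated data in which 200 of 14324 genes changed. It recovered 60.3% of log2 changes of 0.5 in size and 98.5% of those of 1 or 2, and called 6 unchanged genes. In the data 48.3% of genes passed, so these shares need not hold there. Members that missed the threshold may still have changed by small amounts. Members, lists and named genes were chosen with earlier results of these data known. The text names the 8 largest rises and 6 largest falls past the threshold in each subunit, the 3 largest changes that missed it, the 4 brightest and 4 dimmest members, the Mrps18 relatives and Mrps30, and in each other list up to 4 genes with the largest changes past the threshold and the largest against its majority. Further genes, among them head-to-head partners, were named after their values were seen. Subunits and descent follow mammalian mitoribosome structures. The shares among genes in the members' signal range, the motifs and the head-to-head pairs were added after the data were seen. Python 3.11.15, pandas 2.3.3, numpy 2.4.6 and matplotlib 3.10.9 made tables and figures. Precision is limited by the number of arrays.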

Additional observations from a re-analysis of the deposited data

Results flagged for a closer look

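A row of Mrpl41 outside the comparison also rose. The gene has 2 rows in the table, and the dimmer one, which the comparison did not use, read 8.81, 8.84 and 8.81 on day 1 and 8.53, 8.56 and 8.47 on day 0, a log2 change of 0.30 ± 0.06 (limma adjusted p = 0.00697 over all rows). The row that was kept had a change of 0.28 ± 0.06. Groups of 3 arrays are too small for the test for a sample that stands apart, and the study holds no second contrast to compare effects with.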

How the results depend on the processing

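Of the 35 members that passed the threshold, 29 passed in every alternative other than treat in which they were tested (27 that rose, 2 that fell). Among the other 6, named after their values were seen, Mrpl10 and Mrps25 missed it with quantile normalization and Mrpl53 with quantile normalization and without day 1 replicate 2. Mrpl38, Mrps10 and Mrps16 missed it in 8, 8 and 9 alternatives. With quantile normalization 5 members fell, 4 of them in the large subunit, whose median was 0.12, and Mrpl42, which passed in neither, was at -0.081. With median centring the subunit medians were 0.23 (large) and 0.25 (small), and 0 small subunit members fell. The same count of 0 came with every row as a feature and with each array left out in turn (0 to 0). Against a 1.5-fold change (treat), 1550 genes passed, with 1 member higher, 0 lower, 0 large subunit members in either direction and 1 small subunit member higher. Medians with an array left out were 0.18 to 0.23 (large) and 0.18 to 0.26 (small). The causes of these shifts were not tested.

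With the replicate number as a block, 30 members rose and 2 fell, 0 of these in the small subunit. Deviations of same-numbered arrays correlated at 0.01, 0.02 and 0.04, and 3 of 6 arrays correlated best with their own number, so the numbers were not treated as pairs. Dim genes have wider errors in log2 values than the members, which limits what the shares over all genes can show.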

Other observations

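A row that the array annotation gives to both Mrpl20, of the large subunit, and Ankrd65 was outside the comparison. It read 7.99 to 8.07 on day 1 and 7.98 to 8.09 on day 0 (3 arrays each), with overlapping groups (limma adjusted p = 0.997 over all rows). The second rows of Mrpl40 (0.07 ± 0.07), Mrpl42 (0.13 ± 0.10) and Mrps11 (-0.02 ± 0.08) missed the threshold, as did the rows that were kept.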
